A study of Mus musculus with 19 samples.

Results

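The genes described here are 36 genes of glucose breakdown and of the transcriptional response to low oxygen, followed across 19 mammary tumours of the mouse. They were chosen by gene symbol: 17 encode glucose and lactate transporters and glycolytic enzymes, 3 regulate the flux through glycolysis or into the mitochondria, 2 act on glycogen, 4 belong to the oxygen sensing machinery and 10 are other hypoxia targets. A gene counted as measured when the array carried a probe set assigned to its symbol alone. This held for 32 of the 36, and all 32 passed the filter on low signal and were tested among 14231 genes in all. Gpi1, Aldoa, Eno1 and Ankrd37 had no such probe set and have no values here.

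All tumours came from the MMTV-NIC mouse, in which the mammary tumour virus promoter drives an activated form of the receptor ErbB2 (Neu) from the same transcript as the recombinase Cre. Every tumour, those with intact integrins included, therefore carries the oncogene and Cre, and floxed genes are deleted in the cells that use this promoter, mainly mammary epithelial cells, while the stroma keeps them. There were 4 tumours labelled Itgb1 KO (integrin beta 1 deleted), 4 labelled Itgb3 KO (integrin beta 3 deleted), 6 labelled Itgb1/Itgb3 double knockout and 5 with intact integrin genes (NIC WT). RNA was taken from frozen end-burden tumours and measured on a whole-transcript array, with 1 array per tumour. The labels give no age. The 19 titles carry as many different numbers, whose meaning is not explained, and the labels do not say whether the tumours of a group grew in different mice. The p-values below therefore refer to the variation among these arrays, which could include technical variation.

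In normoxic cells the prolyl hydroxylases Egln1 and Egln3 mark the transcription factor subunit Hif1a for destruction, and the asparaginyl hydroxylase Hif1an blocks its transactivation domain. When oxygen falls, Hif1a accumulates as a protein, pairs with Arnt and binds a short core sequence near its target genes, which include glucose transporters, most glycolytic enzymes, the pyruvate dehydrogenase kinase Pdk1, the carbonic anhydrase Car9, the angiogenic factor Vegfa and the mitophagy receptor Bnip3. Because Hif1a is controlled mainly at the protein level, its transcript does not measure its activity.

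The core of the hypoxia response element is ACGTG or GCGTG, and both were searched on both strands in RefSeq windows running from 250 bases before to 50 bases after each annotated start (GRCm38.p6). ACGTG on both strands overlaps itself in the palindrome CACGTG, which other factors also bind. Of the 36 genes, 35 had at least 1 window, 53 in all, and Ndrg1 is not in the table of windows. ACGTG stood in 28 of these windows (52.8%), against 19.6% of all 32851 windows in the table, and GCGTG stood in 27 (50.9%), against 32.4%. Either core stood in a window of 31 of the 35 genes (88.6%), against 46.7% of the 27025 genes with a window. The 35 genes had 53 windows and the 27025 genes 32851, and more windows give a gene more chances of a match. Windows of a gene can overlap, so that a match can count more than once. The windows were not matched for base composition. CACGTG stood in 9.43% of the windows of these genes and in 7.15% of all windows. A match describes the letters in the window and does not show that a factor binds there.

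The first sequences belong to the 4 genes with a match and 1 annotated start whose levels had the lowest p against NIC WT. They are Pygl at chr12:70227684-70227933 on the minus strand, Pfkl at chr10:78009808-78010057 on the minus strand, P4ha2 at chr11:54100674-54100923 on the plus strand and Egln3 at chr12:54203875-54204124 on the minus strand, each given as the 250 bases before the start, 5′ to 3′ on the strand of the gene, with the matches in capitals.
Pygl: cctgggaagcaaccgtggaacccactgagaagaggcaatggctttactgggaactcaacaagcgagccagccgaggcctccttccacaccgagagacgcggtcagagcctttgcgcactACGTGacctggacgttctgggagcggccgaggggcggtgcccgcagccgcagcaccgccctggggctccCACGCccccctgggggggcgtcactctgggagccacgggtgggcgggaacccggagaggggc
Pfkl: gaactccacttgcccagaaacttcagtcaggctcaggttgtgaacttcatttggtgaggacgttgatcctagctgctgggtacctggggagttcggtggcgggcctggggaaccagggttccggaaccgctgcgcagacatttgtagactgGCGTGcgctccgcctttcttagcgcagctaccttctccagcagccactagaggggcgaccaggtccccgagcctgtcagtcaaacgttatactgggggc
P4ha2: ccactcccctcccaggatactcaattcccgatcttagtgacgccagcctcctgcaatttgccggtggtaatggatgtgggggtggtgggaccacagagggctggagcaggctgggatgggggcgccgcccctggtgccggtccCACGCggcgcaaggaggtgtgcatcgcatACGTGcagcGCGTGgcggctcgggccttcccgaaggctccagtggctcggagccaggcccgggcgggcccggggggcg
Egln3: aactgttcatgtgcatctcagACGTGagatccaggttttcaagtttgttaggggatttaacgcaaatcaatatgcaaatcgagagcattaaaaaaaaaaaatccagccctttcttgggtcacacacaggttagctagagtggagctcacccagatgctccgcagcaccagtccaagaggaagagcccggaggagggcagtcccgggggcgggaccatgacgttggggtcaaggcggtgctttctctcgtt
Pygl carried an ACGTG match 131 bases before the start and a GCGTG match 62 bases before it. Pfkl carried a single GCGTG match 99 bases before its start. P4ha2 had 3 matches in the printed stretch, the farthest 107 bases before its start, and another of ACGTG 10 bases after it. Egln3 had a single ACGTG match 229 bases before its start.

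The second set belongs to the 4 genes with a match and 1 annotated start that followed the other genes described here most closely from tumour to tumour, a choice made after those correlations were seen. They are Egln1 at chr8:124949255-124949504 on the minus strand, Bnip3 at chr7:138909507-138909756 on the minus strand, Pgk1 at chrX:106186850-106187099 on the plus strand and Pfkp at chr13:6648772-6649021 on the minus strand, shown in the same way.
Egln1: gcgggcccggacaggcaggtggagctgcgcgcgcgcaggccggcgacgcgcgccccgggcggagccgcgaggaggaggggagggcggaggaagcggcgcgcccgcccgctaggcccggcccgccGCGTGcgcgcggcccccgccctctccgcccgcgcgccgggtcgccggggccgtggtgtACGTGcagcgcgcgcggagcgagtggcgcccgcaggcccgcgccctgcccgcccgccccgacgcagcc
Bnip3: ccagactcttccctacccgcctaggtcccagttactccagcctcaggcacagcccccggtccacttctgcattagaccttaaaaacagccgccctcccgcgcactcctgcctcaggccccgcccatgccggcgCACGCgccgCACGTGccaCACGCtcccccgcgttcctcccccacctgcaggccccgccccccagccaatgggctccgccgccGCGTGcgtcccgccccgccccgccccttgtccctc
Pgk1: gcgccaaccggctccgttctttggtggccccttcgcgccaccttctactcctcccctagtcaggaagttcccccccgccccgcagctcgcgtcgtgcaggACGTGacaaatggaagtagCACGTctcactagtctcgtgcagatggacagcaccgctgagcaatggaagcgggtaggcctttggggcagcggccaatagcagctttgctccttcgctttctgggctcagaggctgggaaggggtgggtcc
Pfkp: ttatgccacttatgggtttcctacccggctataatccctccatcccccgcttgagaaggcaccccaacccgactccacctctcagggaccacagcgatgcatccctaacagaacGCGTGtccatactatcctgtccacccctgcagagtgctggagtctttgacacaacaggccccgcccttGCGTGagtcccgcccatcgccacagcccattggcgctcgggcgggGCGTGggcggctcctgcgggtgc
Bnip3 had 5 matches, of which those 108 and 107 bases before the start form a CACGTG. Pgk1, a long-known target of Hif1a, had ACGTG matches 150 and 131 bases before its start. Egln1 had 2 matches, at 126 and 68 bases. Pfkp had 3 in the printed stretch and another 29 bases after its start, all of GCGTG.

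The labels were checked against the targeted genes. Itgb1 transcript was lower in the Itgb1 KO tumours (log2 difference -1.46, SE 0.212, limma adjusted p = 0.0217) and in the labelled double knockouts (-1.84, SE 0.191, adjusted p = 0.000156), each against NIC WT. Labelled double knockout 5 had the most Itgb1 transcript of its group (9.20). It lay above every Itgb1 KO tumour (highest 8.98) and below every NIC WT tumour (lowest 9.83). Itgb3 transcript lay below every NIC WT tumour in all 4 Itgb3 KO tumours (-1.12, SE 0.254, limma adjusted p = 0.723), but it was close to the NIC WT level in the tumours labelled double knockout (0.013, SE 0.229, adjusted p = 0.986). That group is therefore called the labelled double knockout throughout, and no direction drawn from it can be assigned to the loss of Itgb3. The luminal epithelial markers (6 of 6 measured) were high in every tumour, with array means of 9.65 to 10.1 in Itgb1 KO, 9.7 to 9.91 in Itgb3 KO, 9.8 to 10.3 in labelled double knockout and 9.87 to 10.1 in NIC WT tumours. Skeletal muscle actin Acta1 exceeded a log2 level of 8 in 5 tumours: Itgb1 KO 1, Itgb3 KO 3, labelled double knockouts 2 and 4, and NIC WT 2. Of the red blood cell markers 0 of 5 were measured, and of the basal epithelial markers 1 of 4.

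**Figure D1:**
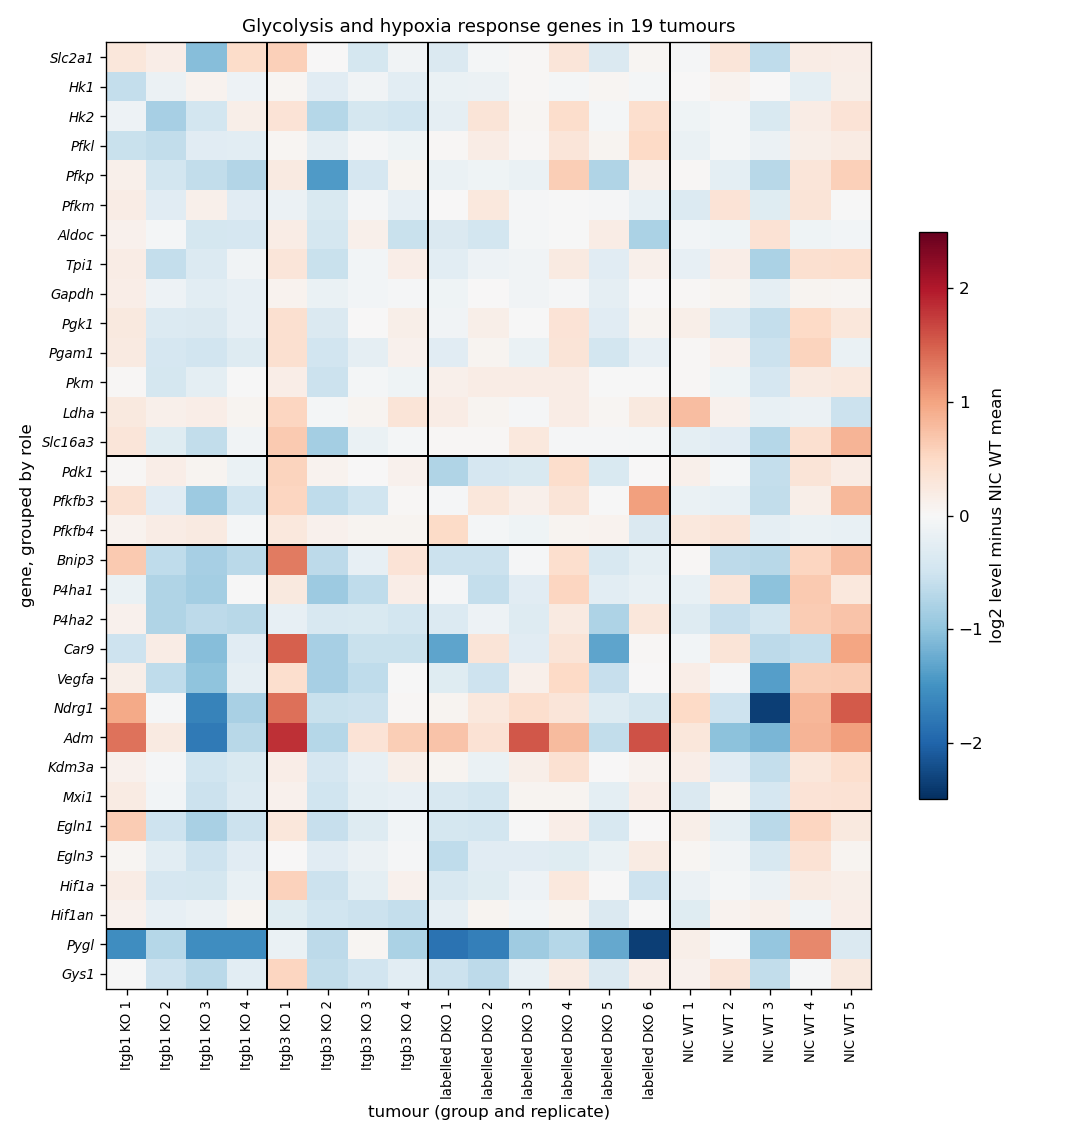
Levels of the 32 measured genes (rows, grouped by role) in the 19 tumours (columns, grouped by genotype label), as the log2 level minus the mean of the 5 NIC WT tumours. Whole columns tend to share a colour: 29 of the 32 genes lie below the NIC WT mean in Itgb3 KO 2 and in NIC WT 3, and 28 lie above it in Itgb3 KO 1.

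Once group means were removed, most of these genes varied together over the 19 tumours, and a smaller share of their variance lay between groups than was the case over all genes (medians of 11.4% and 20.4%). For each tumour the deviation of every gene from the NIC WT mean was taken and the median over the 32 genes computed. This median was 0.13, -0.29, -0.52 and -0.26 in the Itgb1 KO tumours, 0.30, -0.51, -0.20 and -0.034 in the Itgb3 KO tumours, -0.27 to 0.25 in the labelled double knockouts, and 0.025, -0.040, -0.59, 0.31 and 0.26 in the NIC WT tumours. The range inside the NIC WT group covered that of every knockout group, but its lower end rested on NIC WT 3 alone (-0.59). The next lowest NIC WT tumour was at -0.040. The tumours with the most genes above the NIC WT mean were Itgb3 KO 1 (28 of 32) and NIC WT 5 (26 of 32), and those with the most below were Itgb3 KO 2 and NIC WT 3 (29 of 32 each). The median over all genes tested lay between -0.034 and 0.048 in every tumour. In Itgb3 KO 2 the 6 fibroblast markers were also low, with a mean deviation of -2.11, whereas in NIC WT 3 and Itgb1 KO 3 it was -0.16 and 0.14. The part of stromal content in these shifts was not tested, and in whole-tumour RNA fewer cells of a type and less RNA per cell cannot be told apart.

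The widest spread within groups belonged to some of the hypoxia targets. Ndrg1, a stress-induced gene of the hypoxia response, had levels of 10.76, 9.78, 8.13 and 8.98 in Itgb1 KO and 11.19, 9.24, 9.27 and 9.83 in Itgb3 KO tumours, ran from 9.36 to 10.23 with a median of 9.96 in labelled double knockouts and had 10.30, 9.28, 7.45, 10.64 and 11.34 in NIC WT tumours. Its extremes, 14.8-fold apart, were NIC WT 3 and NIC WT 5, so that a single group spanned the whole range. Adm, which encodes the vasodilator peptide adrenomedullin, had levels of 8.75, 7.61, 5.63 and 6.70 in Itgb1 KO and 9.22, 6.69, 7.74 and 8.004 in Itgb3 KO tumours, ran from 6.77 to 8.98 with a median of 8.15 in labelled double knockouts and had 7.67, 6.37, 6.24, 8.25 and 8.43 in NIC WT tumours. Its extremes were Itgb1 KO 3 and Itgb3 KO 1, 12-fold apart, and all groups overlapped. Car9, the cell surface carbonic anhydrase that handles acid, had levels of 7.01, 7.71, 6.44 and 7.24 in Itgb1 KO and 9.02, 6.70, 6.97 and 6.97 in Itgb3 KO tumours, ran from 6.20 to 7.84 with a median of 7.39 in labelled double knockouts and had 7.46, 7.83, 6.86, 6.93 and 8.51 in NIC WT tumours. Itgb3 KO 1 stood alone at the top of its group.

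Bnip3 had levels of 8.26, 6.99, 6.78 and 6.94 in Itgb1 KO and 8.91, 6.96, 7.42 and 7.95 in Itgb3 KO tumours, ran from 7.07 to 8.04 with a median of 7.30 in labelled double knockouts and had 7.65, 6.96, 6.91, 8.16 and 8.39 in NIC WT tumours. Vegfa had levels of 10.04, 9.27, 8.89 and 9.68 in Itgb1 KO and 10.31, 9.06, 9.27 and 9.90 in Itgb3 KO tumours, ran from 9.32 to 10.40 with a median of 9.75 in labelled double knockouts and had 10.06, 9.87, 8.52, 10.52 and 10.53 in NIC WT tumours. For both genes the highest Itgb1 KO tumour was replicate 1 and the highest Itgb3 KO tumour was replicate 1, and the groups overlapped. Within groups the SD on the log2 scale was 1.04 for Adm, 1.03 for Ndrg1, 0.778 for Car9, 0.633 for Bnip3 and 0.595 for Vegfa. It was 0.128 for Gapdh, the glyceraldehyde phosphate dehydrogenase, which spanned 1.36-fold. The median SD within groups was 0.349 for the 32 genes, against 0.242 for all genes tested.

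The highest shares of variance between genotype groups over the 19 tumours were 68.3% for Pfkl, 60.4% for Hif1an and 58.3% for Pygl. The median share was 11.4% for the 32 genes and 20.4% for all genes tested. How many of all genes had shares this high was not counted. Ndrg1 had 3.59% and the glucose transporter Slc2a1 0.793%.

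Correlations were computed on deviations from the group means, so that differences between group means did not enter. Over the 496 pairs of the 32 genes the median Pearson r was 0.527, the range was -0.46 to 0.914, 433 pairs had r above 0 and 260 had r above 0.5. The mean r was 0.433, against 0.00739 over all pairs of the genes tested and 0.0655 over pairs of the other pathway genes described last. These are descriptions over 19 arrays, and each pair shares those arrays and their normalization. The 9 measured hypoxia targets had the highest mean r of the roles (0.685), followed by the 4 oxygen sensing genes (0.415) and the 14 transporters and glycolytic enzymes (0.352). The 2 glycogen genes had r = 0.212 and the 3 flux regulators a mean r of 0.0611. The closest pair was Bnip3 and the prolyl hydroxylase Egln1 (r = 0.914), and Vegfa was closest to the triose phosphate isomerase Tpi1 (r = 0.895). The collagen prolyl hydroxylase P4ha1 was closest to Vegfa (r = 0.891), and Ndrg1 to the histone demethylase Kdm3a (r = 0.885). The pyruvate kinase Pkm was closest to the lactate exporter Slc16a3 (r = 0.881). The highest median r with the other genes belonged to Vegfa (0.754), Egln1 (0.724) and Bnip3 (0.717).

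Some genes stood outside this pattern. Hk1, the constitutive hexokinase, had a median r of -0.155 with the others, whereas Hk2, the inducible hexokinase, had 0.61. Among the phosphofructokinase subunits the platelet type Pfkp had a median r of 0.697, the liver type Pfkl 0.372 and the muscle type Pfkm 0.25. Ldha, lactate dehydrogenase A, had 0.123 and was closest to the bifunctional enzyme Pfkfb4 (r = 0.502), which itself had -0.0715 with the rest. Aldoc, an aldolase known from brain, had 0.0463, Hif1an 0.274 and Pygl 0.287. Pfkfb4 was dim (mean log2 level 5.18), as was Slc16a3 (5.39), which had a median r of 0.666. The part of signal strength in these values was not tested.

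**Figure D2:**
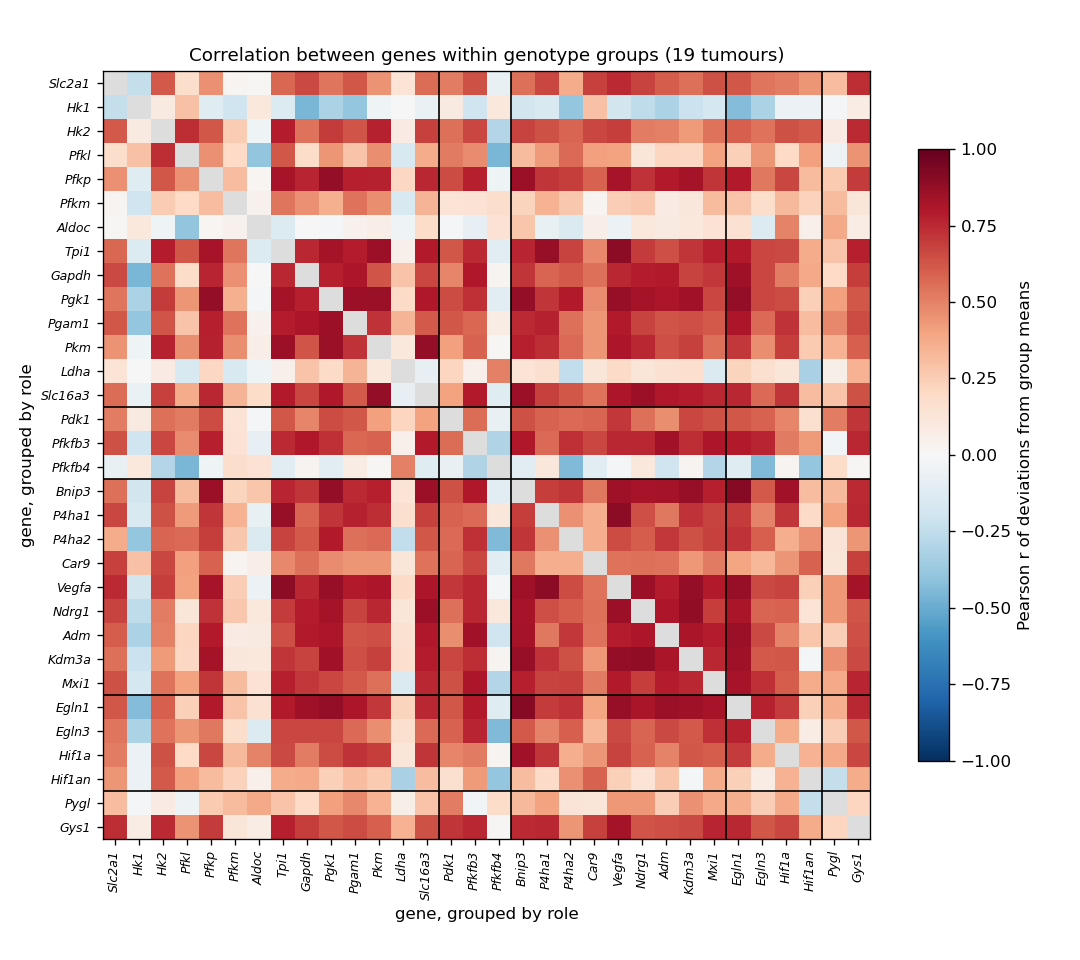
Pearson r between each pair of the 32 genes over 19 tumours, computed on deviations from genotype group means and ordered by role. The block of hypoxia targets has the strongest colour (mean r 0.685). Hk1, Aldoc, Ldha and Pfkfb4, whose median r is -0.155, 0.0463, 0.123 and -0.0715, form paler stripes. Some of their cells are negative, such as Hk1 with Gapdh (-0.456) and Pfkfb4 with Pfkl (-0.46), and Pfkfb4 with Ldha is at 0.502.

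For 6 named pairs the correlation was tested by permuting tumours within genotype groups (100000 permutations, two-sided, Benjamini-Hochberg over the 6 pairs). Adm and Vegfa, both secreted vascular factors, had r = 0.784 (adjusted permutation p = 0.00066) and Spearman rho = 0.802 (adjusted permutation p = 0.0018). Hif1a and the ATP-generating enzyme Pgk1 had r = 0.651 (adjusted permutation p = 0.00561) and Spearman rho = 0.644 (adjusted permutation p = 0.00784). Bnip3 and Egln3 had r = 0.614 (adjusted permutation p = 0.0105) and Spearman rho = 0.737 (adjusted permutation p = 0.00387). Slc2a1, the main glucose transporter of proliferating cells, and Pdk1 had r = 0.514 (adjusted permutation p = 0.0125) and Spearman rho = 0.528 (adjusted permutation p = 0.0337). These 4 pairs passed on both measures, and without the 2 tumours farthest from the median of the first gene r was 0.755 for Adm and Vegfa, 0.565 for Hif1a and Pgk1, 0.557 for Bnip3 and Egln3 and 0.574 for Slc2a1 and Pdk1. The collagen prolyl hydroxylases P4ha1 and P4ha2 had r = 0.457 (adjusted permutation p = 0.111) and Spearman rho = 0.361 (adjusted permutation p = 0.186), with r = 0.325 after the removal. P4ha2 was close to the filter on low signal (mean log2 level 4.86). Pgk1 and Ldha, both glycolytic enzymes and textbook targets of Hif1a, had r = 0.193 (adjusted permutation p = 0.648) and Spearman rho = 0.254 (adjusted permutation p = 0.387), with r = 0.218 after the removal. These last 2 pairs did not pass. The unadjusted permutation p for r was 0.00011, 0.00187, 0.00525, 0.00834, 0.0923 and 0.648 in the order of the pairs above. The permutations asked whether the genes of a pair varied together at all. Whether a pair was closer than other pairs of the genes described here was not tested. Over all 496 pairs the median r was 0.527, and 260 had r above 0.5. Of the 4 pairs that passed, Slc2a1 and Pdk1 (0.514) lay below that median and the others above it. A pass therefore does not show a link specific to the pair.

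**Figure D3:**
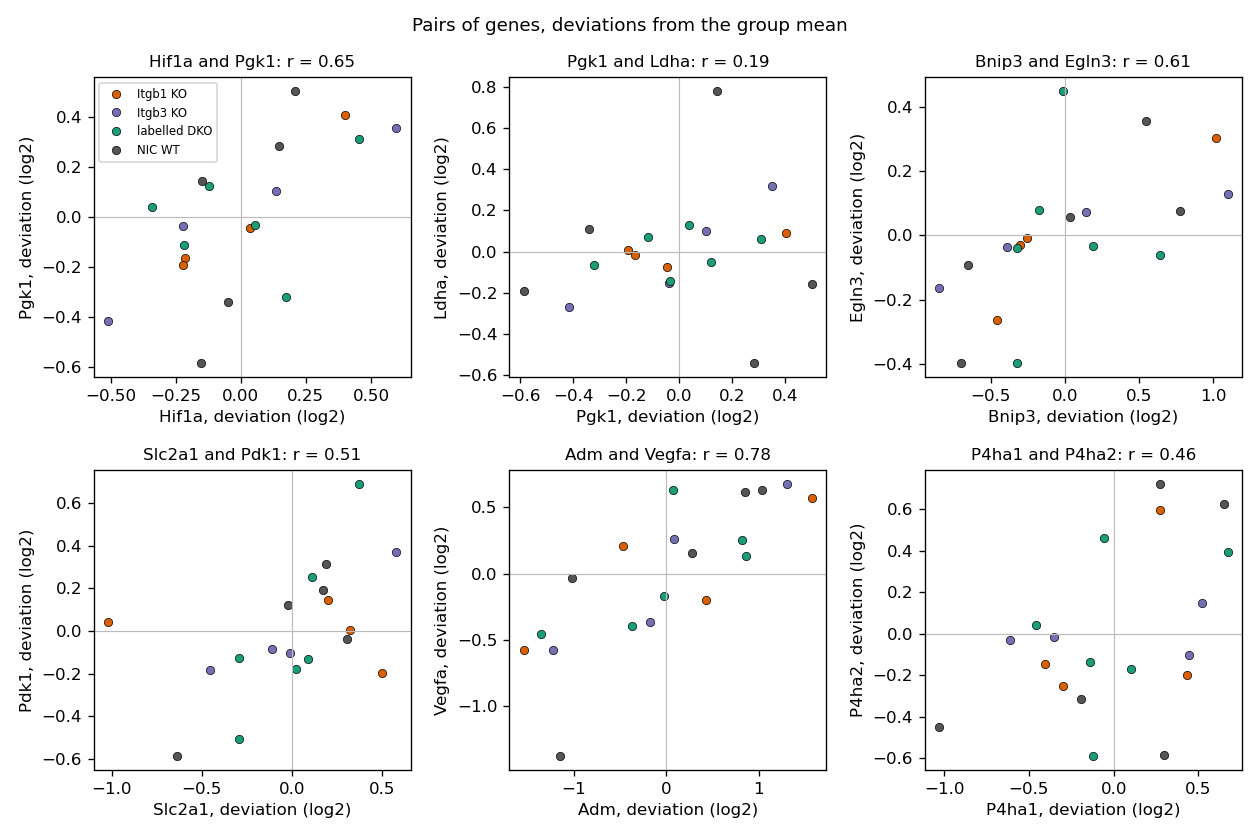
The 6 tested pairs, each point a tumour coloured by genotype label, with both axes as the deviation from the group mean on the log2 scale. The points of Adm and Vegfa run along a diagonal (r = 0.784), and those of Pgk1 and Ldha scatter (r = 0.193).

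The comparisons between genotypes address whether the deletion of either integrin came with other levels of these genes. All 7 came from a single limma fit over the 19 tumours, and the 3 comparisons with NIC WT share the same 5 NIC WT tumours. A gene passed at a Benjamini-Hochberg adjusted p under 0.05 over all 14231 genes, and of the 32 genes 0 passed in any of the 7 comparisons. A difference that missed the threshold is not shown to be absent: the median 95% interval extended 0.462 on the log2 scale to either side of the difference in Itgb1 KO and in Itgb3 KO, and 0.417 in the labelled double knockout. For the 9 measured hypoxia targets the median interval was wider. It extended 0.762 to either side in each single knockout and 0.688 in the labelled double knockout.

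**Figure D4:**
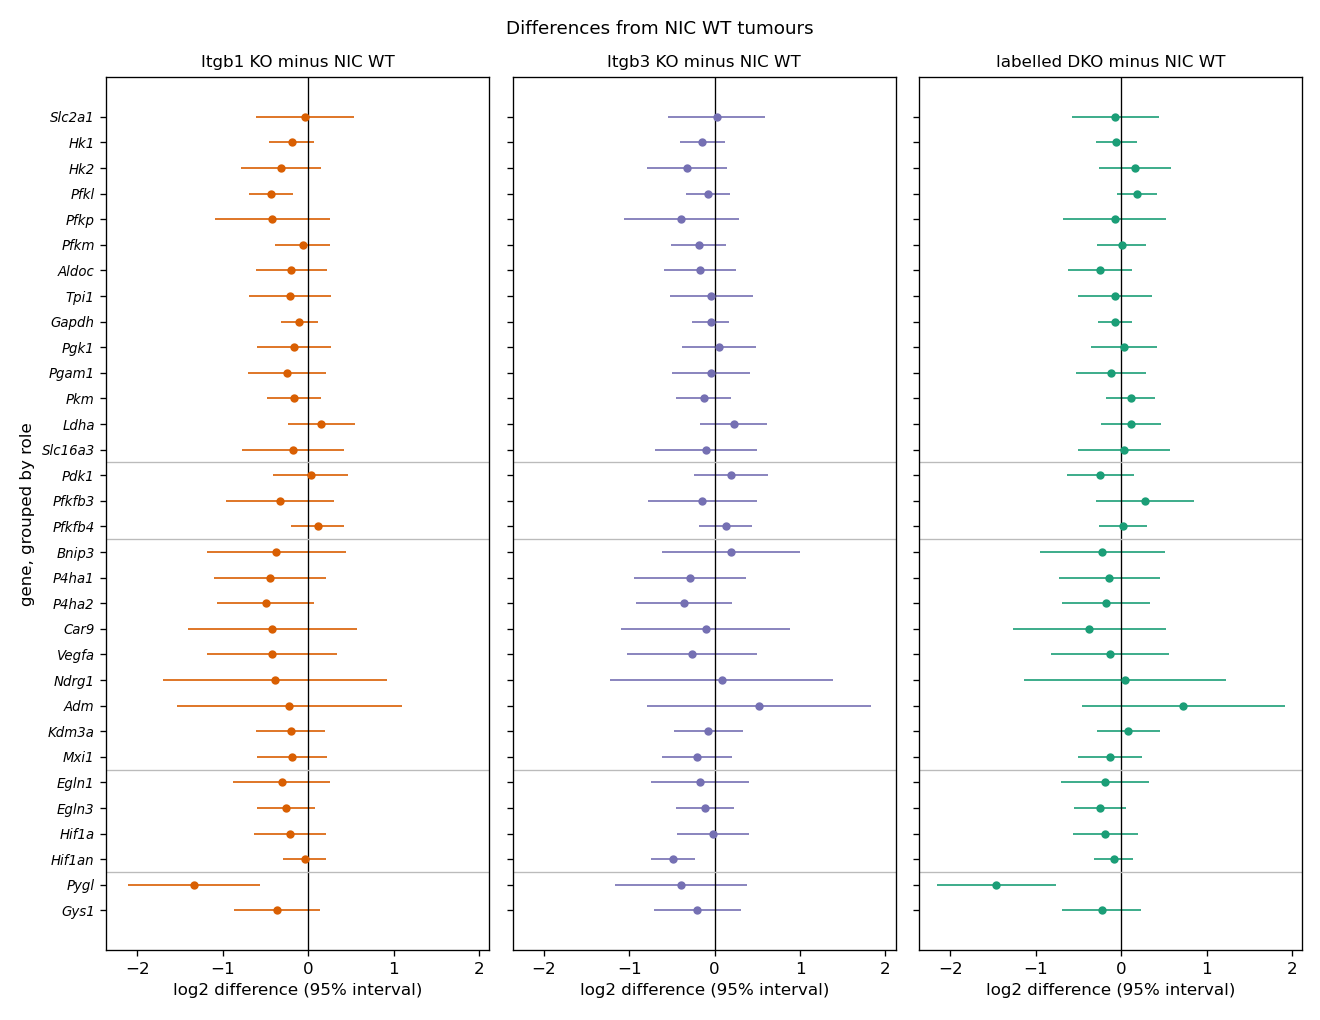
Log2 difference from NIC WT of each of the 32 genes with its 95% interval from limma, for Itgb1 KO, Itgb3 KO and labelled double knockout tumours, grouped by role. All intervals cross 0 except those of Pygl and Pfkl in Itgb1 KO, Hif1an in Itgb3 KO and Pygl in the labelled double knockout.

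In Itgb1 KO tumours most of these genes had lower means than in NIC WT tumours, but no single gene passed the test. The median difference over the 32 genes was -0.22, against 0.024 over all genes tested, and 29 of the 32 lay below 0, against 44.1% of all genes. In the tumour Itgb1 KO 1, however, 25 of the 32 lay above the NIC WT mean. Counts of genes here and below are not separate observations, because the genes varied together within groups (mean r 0.433). Here 0 of the 32 passed by limma, against 0.00703% of all genes tested, which was Itgb1 itself. That call was lost under 8 of 28 alternatives, among them array weights. At an unadjusted p under 0.05, 0 of the 32 were higher and 2 lower, against 3.3% and 1.56% of all genes. By role, 13 of 14 transporters and glycolytic enzymes, 1 of 3 flux regulators, 9 of 9 hypoxia targets, 4 of 4 oxygen sensing genes and 2 of 2 glycogen genes had a difference below 0, with medians of -0.18, 0.028, -0.39, -0.24 and -0.85 in that order. The median over the 32 genes lay between -0.38 and -0.14 over the alternative settings, with -0.38 without the 5 tumours with high Acta1, -0.14 without Itgb1 KO 3 and -0.37 without NIC WT 3. The fibroblast (6 of 6) and adipocyte markers (4 of 4 measured) had positive differences here, with medians of 0.40 and 0.59, and their part in the lower values was not tested.

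Pygl, the liver-type glycogen phosphorylase that releases glucose units from glycogen, had the lowest p. Its log2 level was 5.98, 6.82, 5.98 and 5.98 in the 4 Itgb1 KO tumours, against 7.67, 7.52, 6.56, 8.73 and 7.17 in the NIC WT tumours. In 3 of the 4 Itgb1 KO tumours it was below every NIC WT tumour, and Itgb1 KO 2 overlapped with NIC WT 3. The difference was -1.34, SE 0.369, with a 95% interval of -2.11 to -0.57 (2.53-fold lower, limma adjusted p = 0.982).

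Pfkl, the liver-type subunit of the committing enzyme of glycolysis, was the only gene of the 32 whose Itgb1 KO and NIC WT tumours did not overlap. Its level was 9.68, 9.63, 9.97 and 9.97 in Itgb1 KO tumours, against 10.09, 10.20, 10.09, 10.38 and 10.45 in NIC WT tumours. Of all genes 0.45% were separated in this direction. The difference was -0.43, SE 0.123, with a 95% interval of -0.69 to -0.17 (1.35-fold lower, limma adjusted p = 0.982).

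P4ha2, a collagen prolyl hydroxylase induced by hypoxia, had levels of 5.19, 4.35, 4.45 and 4.40 in Itgb1 KO tumours, against 4.78, 4.51, 4.64, 5.72 and 5.82 in NIC WT tumours (difference -0.50, SE 0.27, limma adjusted p = 0.982). These levels were close to the filter on dim probe sets, and Itgb1 KO 1 lay inside the NIC WT range. Egln3 differed by -0.26, SE 0.161 (adjusted p = 0.982). Above 0 stood Ldha (0.15, SE 0.186), Pfkfb4 (0.11, SE 0.148) and Pdk1 (0.028, SE 0.208), with limma adjusted p from 0.987 to 0.999, and the sign of Pdk1 turned under 3 alternatives. The Ldha difference was 0.017 without NIC WT 5 and 0.35 without NIC WT 1. Vegfa differed by -0.43, SE 0.364, Car9 by -0.42, SE 0.472, Hif1a by -0.21, SE 0.2, Pgk1 by -0.17, SE 0.207 and Slc2a1 by -0.038, SE 0.272, with limma adjusted p from 0.982 to 0.999. The other hypoxia targets had differences of -0.45 for P4ha1, -0.39 for Ndrg1, -0.37 for Bnip3, -0.22 for Adm, -0.21 for Kdm3a and -0.19 for Mxi1.

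In Itgb3 KO tumours the 4 tumours diverged, with Itgb3 KO 1 among the highest and Itgb3 KO 2 among the lowest of the series. The median difference over the 32 genes was -0.11, against -0.011 over all genes, with 24 of 32 below 0, against 52.4% of all genes, and it was 0.0011 without Itgb3 KO 2 and -0.24 without NIC WT 3. Here 0 of the 32 passed by limma, against 0.0% of all genes tested. With an unadjusted p under 0.05, 0 of the 32 were higher and 1 lower, against 3.34% and 2.8% of all genes. By role, 11 of 14 transporters and glycolytic enzymes, 1 of 3 flux regulators, 6 of 9 hypoxia targets, 4 of 4 oxygen sensing genes and 2 of 2 glycogen genes had a difference below 0, with medians of -0.094, 0.13, -0.11, -0.14 and -0.30 in that order. The fibroblast (6 of 6), macrophage (6 of 6) and luminal epithelial markers (5 of 6) had negative differences, with medians of -0.65, -0.31 and -0.16, and their part was not tested.

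Hif1an, the hydroxylase that restrains Hif1a transactivation, had the lowest p. Its level was 6.56, 6.37, 6.33 and 6.27 in Itgb3 KO tumours, against 6.57, 6.96, 6.99, 6.79 and 7.03 in NIC WT tumours. All 4 Itgb3 KO tumours lay below every NIC WT tumour, though Itgb3 KO 1 and NIC WT 1 nearly touched, and 1.17% of all genes were separated in this direction. The difference was -0.49, SE 0.121, with a 95% interval of -0.74 to -0.23 (1.4-fold lower, limma adjusted p = 0.723).

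Hk2 had levels of 7.53, 6.46, 6.75 and 6.68 in Itgb3 KO tumours, against 7.08, 7.13, 6.80, 7.37 and 7.53 in NIC WT tumours (difference -0.33, SE 0.224, limma adjusted p = 0.885). All Itgb3 KO tumours except replicate 1 lay below the NIC WT tumours. P4ha2 differed by -0.36, SE 0.27 (adjusted p = 0.894) and Pfkm by -0.19, SE 0.153 (adjusted p = 0.906). Above 0 stood Adm (0.52, SE 0.626), Ldha (0.22, SE 0.186), Pdk1 (0.19, SE 0.208) and Pfkfb4 (0.13, SE 0.148), with limma adjusted p from 0.912 to 0.94. Single tumours moved these values: Adm was 0.086 without Itgb3 KO 1 and 0.93 without Itgb3 KO 2. Pdk1 was 0.045 without NIC WT 3 and 0.27 without NIC WT 4, Ldha 0.088 without NIC WT 5 and 0.42 without NIC WT 1, and Pfkfb4 0.076 without NIC WT 3. Vegfa differed by -0.27, SE 0.364, Car9 by -0.11, SE 0.472, Pgk1 by 0.051, SE 0.207, Slc2a1 by 0.021, SE 0.272 and Hif1a by -0.018, SE 0.2, with limma adjusted p from 0.946 to 0.995. Pygl differed by -0.39, SE 0.369, with a 95% interval of -1.17 to 0.38 (adjusted p = 0.92).

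In the labelled double knockout tumours the median of these genes lay near that of NIC WT, and Pygl had the lowest p. The median difference was -0.073, against 0.034 over all genes, with 20 of 32 below 0, against 44.1% of all genes, and it was -0.22 without NIC WT 3 and -0.0083 without NIC WT 4. Here 0 of the 32 passed by limma, against 0.386% of all genes tested. At an unadjusted p under 0.05, 0 of the 32 were higher and 1 lower, against 11.2% and 5.68% of all genes. By role, 7 of 14 transporters and glycolytic enzymes, 1 of 3 flux regulators, 6 of 9 hypoxia targets, 4 of 4 oxygen sensing genes and 2 of 2 glycogen genes had a difference below 0, with medians of -0.025, 0.022, -0.13, -0.19 and -0.85 in that order. The endothelial (7 of 7), fibroblast (6 of 6) and macrophage markers (6 of 6) had positive differences, with medians of 0.38, 0.49 and 0.27, and their part was not tested.

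Pygl ran from 5.18 to 6.82 with a median of 6.04 in the 6 labelled double knockouts, against 7.67, 7.52, 6.56, 8.73 and 7.17 in NIC WT tumours. In 4 of the 6 it was below every NIC WT tumour, and replicates 3 and 4 lay above NIC WT 3 alone. The difference was -1.46, SE 0.333, with a 95% interval of -2.16 to -0.76 (2.76-fold lower), and it missed the threshold (limma adjusted p = 0.0577). It passed with a stricter filter on dim probe sets (adjusted p = 0.0491), without labelled double knockout 4 (-1.61, adjusted p = 0.0426) and without NIC WT 3 (-1.71, adjusted p = 0.0309). Over all alternatives the difference lay between -1.71 and -1.16, with limma adjusted p from 0.0309 to 0.23.

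Pfkl ran from 10.26 to 10.75 with a median of 10.37 in labelled double knockouts, and 2 of the 6 lay above every NIC WT tumour (difference 0.19, SE 0.111, limma adjusted p = 0.404). Adm, with the levels given above, differed by 0.73, SE 0.565 (95% interval -0.46 to 1.91, adjusted p = 0.537). Both genes overlapped with NIC WT. Pfkfb3, which makes an activator of phosphofructokinase, differed by 0.28, SE 0.274 (adjusted p = 0.633), and Pkm by 0.11, SE 0.137 (adjusted p = 0.719), or by 0.0076 without NIC WT 3. Below 0 stood Egln3 (-0.24, SE 0.146), Aldoc (-0.25, SE 0.181) and Pdk1 (-0.25, SE 0.188), with limma adjusted p from 0.405 to 0.532. Car9 differed by -0.37, SE 0.426, Hif1a by -0.18, SE 0.181, Vegfa by -0.13, SE 0.328, Ldha by 0.12, SE 0.168, Slc2a1 by -0.067, SE 0.245 and Pgk1 by 0.034, SE 0.187, with limma adjusted p from 0.64 to 0.949.

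**Figure D5:**
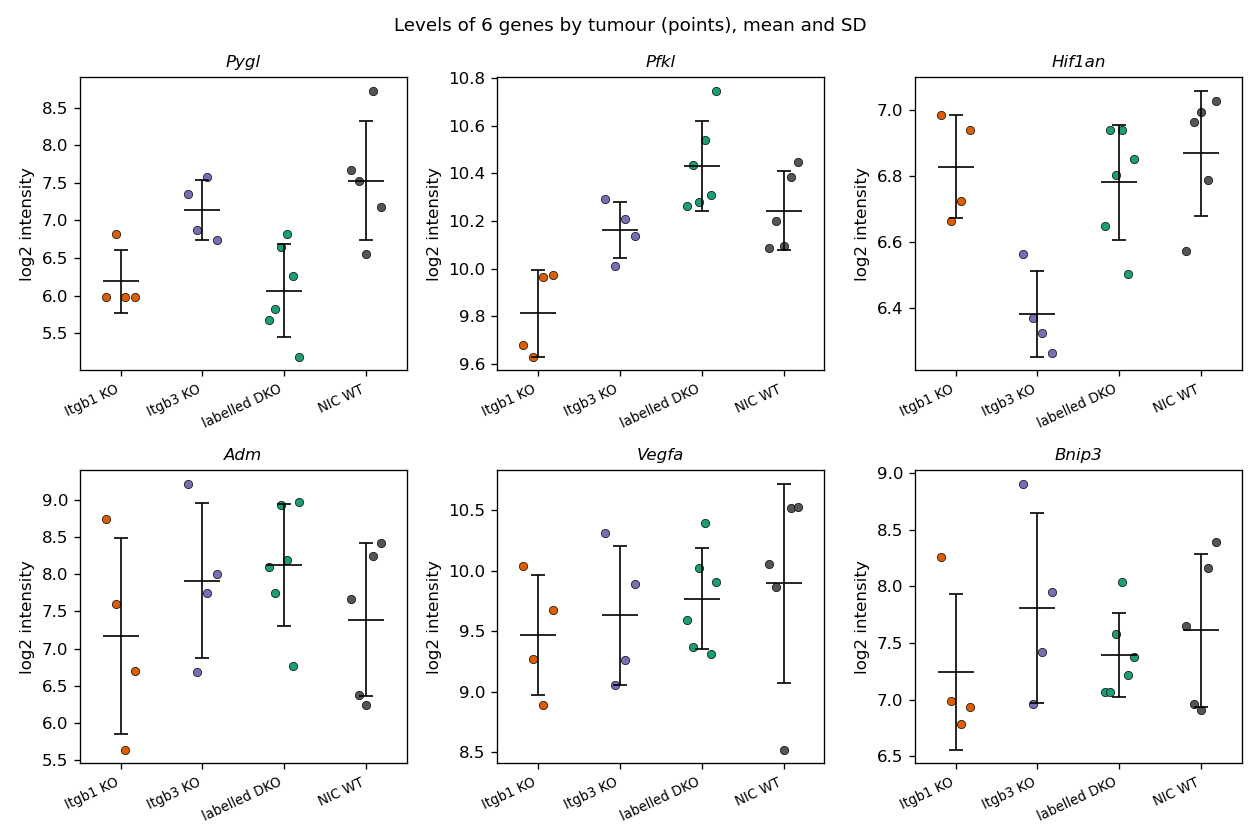
Log2 levels of 6 genes in every tumour (points) with the group mean and SD (bars), for Itgb1 KO, Itgb3 KO, labelled double knockout and NIC WT tumours. Pfkl in Itgb1 KO and Hif1an in Itgb3 KO lie below every NIC WT tumour, whereas Adm, Vegfa and Bnip3 spread widely within each group and overlap between groups.

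Between the knockout groups the lowest p belonged to Pfkl, Hk2, Hif1an and Pygl. Between labelled double knockout and Itgb1 KO tumours, 0 of the 32 passed by limma, against 0.0211% of all genes tested. By an unadjusted p under 0.05, 3 of the 32 were higher and 0 lower, against 7.27% and 4.99% of all genes. The median difference was 0.14, against 0.0058 for all genes, and it was 0.040 without Itgb1 KO 3 and 0.28 without Itgb1 KO 1. Of the 32 genes 25 lay above 0, against 51.1% of all genes. The adipocyte markers were lower in 4 of 4 (median -0.47) and the macrophage markers higher in 5 of 6 (median 0.25), and their part was not tested. Pfkl was higher in all 6 labelled double knockouts than in every Itgb1 KO tumour, and 1.57% of all genes were separated in this direction. The difference was 0.62, SE 0.118, with a 95% interval of 0.37 to 0.87 (1.53-fold, limma adjusted p = 0.0851), and it passed only without labelled double knockout 5 (0.64, adjusted p = 0.0456). Over all alternatives the adjusted p was 0.0456 to 0.227. Hk2 ran from 6.95 to 7.63 with a median of 7.37 in labelled double knockouts, against 7.06, 6.35, 6.73 and 7.33 in Itgb1 KO tumours, with 3 of the 6 above all of them (difference 0.48, SE 0.215, limma adjusted p = 0.38).

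Between labelled double knockout and Itgb3 KO tumours, 0 of the 32 passed by limma, against 2.87% of all genes tested. With an unadjusted p under 0.05, 3 of the 32 were higher and 2 lower, against 14.0% and 7.14% of all genes. The median difference was -0.017, against 0.032 for all genes, and it was 0.20 without Itgb3 KO 1 and -0.11 without Itgb3 KO 2. Hif1an ran from 6.50 to 6.94 with a median of 6.83 in the labelled double knockouts, against 6.56, 6.37, 6.33 and 6.27 in Itgb3 KO tumours, with 5 of the 6 above all of them. Its difference was 0.40, SE 0.117, with a 95% interval of 0.15 to 0.64 (limma adjusted p = 0.0662). It passed with array weights (0.40, adjusted p = 0.018) and without labelled double knockout 5 (0.45, adjusted p = 0.0418), and over all alternatives the adjusted p was 0.018 to 0.316. Pygl differed by -1.07, SE 0.355, with a 95% interval of -1.81 to -0.33 (limma adjusted p = 0.0973), and 5 of the 6 lay below every Itgb3 KO tumour, at 7.35, 6.88, 7.58 and 6.74. It passed with array weights (-0.99, adjusted p = 0.0396), and over all alternatives the adjusted p was 0.0396 to 0.263. The fibroblast (6 of 6), macrophage (6 of 6) and endothelial markers (7 of 7) had positive differences, with medians of 1.21, 0.61 and 0.45, and their part was not tested.

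Between Itgb3 KO and Itgb1 KO tumours, 0 of the 32 passed by limma, against 0.0% of all genes tested. By an unadjusted p under 0.05, 2 of the 32 were higher and 1 lower, against 1.72% and 2.82% of all genes. The median difference of 0.14 (all genes, -0.033) changed to -0.018 without Itgb3 KO 1. All 4 Itgb3 KO tumours had less Hif1an than every Itgb1 KO tumour, which had 6.98, 6.66, 6.73 and 6.94 (difference -0.45, SE 0.128, limma adjusted p = 0.996). All 4 also had more Pfkl, at 10.29, 10.01, 10.21 and 10.14, than every Itgb1 KO tumour (0.35, SE 0.13, adjusted p = 0.996). Of all genes 1.4% were separated upward and 2.47% downward. Of the 32 genes 28 lay above 0, against 42.8% of all genes. The fibroblast (6 of 6), adipocyte (4 of 4), endothelial (7 of 7) and macrophage markers (5 of 6) had negative differences, with medians of -0.93, -0.64, -0.22 and -0.41, and their part was not tested.

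The interaction compares the labelled double knockout with the sum of both single knockout differences. Here 0 of the 32 passed by limma, against 0.0% of all genes tested. Using an unadjusted p under 0.05, 3 of the 32 were higher and 0 lower, against 7.53% and 4.96% of all genes. The median was 0.28, against 0.0069 for all genes, with 27 of 32 above 0, against 50.8% of all genes. It was 0.14 without Itgb1 KO 3 and 0.41 without Itgb3 KO 1. The macrophage (6 of 6) and fibroblast markers (5 of 6) were also above 0, with medians of 0.51 and 0.60, and their part was not tested. Pfkl had the lowest p (0.70, SE 0.171, 95% interval 0.34 to 1.06, limma adjusted p = 0.158), followed by Hif1an (0.44, SE 0.169, adjusted p = 0.301). Since Itgb3 transcript was not lower in the labelled double knockout, this contrast does not measure the combined loss of both integrins.

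The probe sets of a gene did not always match. Of the 32 genes 8 had more than 1 probe set, and the set with the highest mean was used. For Mxi1, a Myc antagonist induced by hypoxia, the difference in Itgb3 KO tumours was -0.21 on the set used and -0.64 on the other. For Hif1a the labelled double knockout differed by -0.18 on the set used and by -0.49 on a dimmer set, and for Ndrg1 the Itgb3 KO difference was 0.082 on the set used and -0.34 on a dimmer set. For Car9 the differences in Itgb1 KO, Itgb3 KO and labelled double knockout were -0.42, -0.11 and -0.37 on the set used. On a dimmer set of Car9 they were -0.070, 0.083 and -0.15. Gapdh and Pgam1 have near-identical copies elsewhere in the genome that can bind the same probes, so their values are uncertain.

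From a list of 61 further genes of these pathways, 49 were measured and 0 passed by limma in any of the 7 comparisons. At an unadjusted p under 0.05 there were 1 higher and 2 lower in Itgb1 KO, 0 higher and 1 lower in Itgb3 KO and 6 higher and 1 lower in labelled double knockout tumours, each against NIC WT. Over all genes 3.3% were higher and 1.56% lower in Itgb1 KO, 3.34% and 2.8% in Itgb3 KO and 11.2% and 5.68% in labelled double knockout tumours. The median differences of these further genes were -0.061, -0.067 and 0.0028 in that order. Bhlhe41, a transcriptional repressor induced by hypoxia, averaged 6.99 in labelled double knockouts, against 5.59 in NIC WT tumours, with all 6 above every NIC WT tumour, a separation found upward in 1.19% of all genes. The difference was 1.40, SE 0.304, with a 95% interval of 0.76 to 2.04 (limma adjusted p = 0.0504), and it passed under 6 of 28 alternatives, with adjusted p from 0.0348 to 0.259. All 6 also lay above every Itgb3 KO tumour (1.18, SE 0.325, adjusted p = 0.0539), a separation found upward in 5.88% of all genes. Against Itgb1 KO the groups overlapped, and 2 of the 6 lay above every Itgb1 KO tumour (1.05, SE 0.325, adjusted p = 0.206). Pfkfb2, a relative of Pfkfb3, differed from NIC WT by 0.51, SE 0.135 (adjusted p = 0.0844) and Pdk3, a relative of Pdk1, by 0.44, SE 0.179 (adjusted p = 0.227). The Pdk3 difference was 0.25 without NIC WT 2 and 0.080 without the 5 tumours with high Acta1 (adjusted p = 0.848).

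In Itgb1 KO tumours the lowest p of these further genes belonged to Mif (-0.36, SE 0.124), a cytokine gene that hypoxia can induce, Tigar (0.27, SE 0.11), which lowers an activator of phosphofructokinase, and Slc16a1 (-0.74, SE 0.311), a lactate transporter, each with a limma adjusted p of 0.982. In Itgb3 KO tumours it belonged to Arnt (-0.29, SE 0.0968, adjusted p = 0.792), the partner of Hif1a, which was below every NIC WT tumour in all 4, a separation found downward in 1.17% of all genes. The pyruvate dehydrogenase kinase Pdk2 (-0.27, SE 0.134, adjusted p = 0.81) and the brain-type glycogen phosphorylase Pygb (0.25, SE 0.146, adjusted p = 0.845) came next.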

How the data were processed

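RNA of 19 mammary tumours was measured on Affymetrix whole-transcript arrays. The deposited table gives log2 values for 41345 probe sets, already normalized by the authors. Per the submitters' processing notes this was done in Expression Console, and the sources used here name neither its version nor a background correction. No normalization was added. For arrays, their number limits the precision. Probe sets with 1 gene symbol in the platform annotation (23521) were kept where they reached the table median of 4.3791 on at least 4 arrays. Per gene the set with the highest mean was used, which left 14231 genes.

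Groups follow the genotype labels, and replicate numbers only name tumours in accession order. All 19 arrays entered 1 fit in limma 3.58.1 (lmFit and eBayes, R 4.3.3) with 1 mean per group and 15 residual degrees of freedom. Tests were two-sided, and p-values were adjusted by Benjamini-Hochberg over all genes in each comparison. The fit was tested on simulated data. Correlations used Python 3.11.15 and numpy 2.4.6, and 2 of 8 chosen pairs had an unmeasured gene. Promoter windows are from RefSeq (GRCm38.p6). Alternatives changed the array scaling, the filter, the choice of probe set, the variance prior, array weights and the arrays in the fit, and left out each replicate in turn.

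Named genes were the 4 with the lowest p in each direction against NIC WT, the 2 with the lowest p between knockouts and for the interaction, and Hif1a, Slc2a1, Pgk1, Ldha, Car9 and Vegfa, and the 3 other pathway genes with the lowest p per comparison with NIC WT. The genes and lists were chosen with earlier results of these data known.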

Additional observations from a re-analysis of the deposited data

Results flagged for a closer look

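In 8 of 128 combinations of a gene and a genotype group, the highest or lowest tumour lay far from the others of its group (Dixon's criterion at 95%). Chance marks about 1 group in 20. For Pygl, Itgb1 KO 2 was at 6.8224, and the other Itgb1 KO tumours were at 5.9765 to 5.9791. Itgb1 KO 1 was high for Bnip3 (8.2627, next 6.9867) and for P4ha2 (5.1943, next 4.4493). For Car9, Itgb3 KO 1 was at 9.0215, and the next Itgb3 KO tumour was at 6.9692. In the labelled double knockouts, replicate 6 was high for Pfkfb3 (7.0968, next 6.3836) and replicate 3 for Slc16a3 (5.7103, next 5.4767). NIC WT 3 was the highest NIC WT tumour for Aldoc (12.436, next 12.017) and the lowest for Gapdh (12.917, next 13.161).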

How the results depend on the processing

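The count of genes that passed stayed at 0 under all alternatives, of 32 genes or of the 29 left by the filter of 6, for Itgb1 KO and Itgb3 KO against NIC WT, for Itgb3 KO against Itgb1 KO and for the interaction. For the labelled double knockout against NIC WT it was 1 (Pygl) with a filter of 6 on 4 arrays, and 0 to 1 over the fits that left out a replicate each (1 without labelled double knockout 4 or without NIC WT 3). Against Itgb1 KO it was 0 to 1 (Pfkl, without labelled double knockout 5). Against Itgb3 KO it was 2 (Hif1an and Pygl) with array weights and 0 to 1 over the left-out replicates (Hif1an, without labelled double knockout 5). The cause was not tested. Pdk1 in Itgb1 KO against NIC WT turned to -0.048 with array weights and ran from -0.12 (without NIC WT 3) to 0.11 over the left-out replicates, with -0.021 without Itgb1 KO 2. Slc2a1 in the labelled double knockout against NIC WT ran from -0.23 to 0.0086 (without NIC WT 2) over the left-out replicates. On raw log2 values P4ha1 and P4ha2 passed (r = 0.533, adjusted permutation p = 0.0468). Over all genes, the calls for Itgb1 KO against NIC WT ran from 0 to 1, beside 1 (Itgb1), with 0 under 8 of 28 alternatives, which were array weights and 7 fits without a replicate. For Itgb3 KO against NIC WT they stayed at 0. The calls for the labelled double knockout against NIC WT ran from 2 (only these groups in the fit) to 125 (without labelled double knockout 5), beside 55. Against Itgb3 KO they ran from 14 (without the 5 tumours with Acta1 above 8, a setting chosen after seeing the data) to 1568 (array weights), beside 408, and against Itgb1 KO from 0 to 33, beside 3. The interaction ran from 0 to 5 calls and Itgb3 KO against Itgb1 KO from 0 to 1. The median difference of the 32 genes changed sign over the alternatives for Itgb3 KO against NIC WT (-0.24 to 0.0011), Itgb3 KO against Itgb1 KO (-0.018 to 0.30) and the labelled double knockout against Itgb3 KO (-0.11 to 0.20). No paired analysis was possible because the labels carry no replicate numbers. The number of tumours and the spread of hypoxia targets between them limit what these comparisons can show.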
